A study of Mus musculus with 48 samples.

Results

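The genes described here are 10 markers of neurons, read in ribosome pulldowns from astrocytes. They were taken as a list (Snap25, Syt1, Syn1, Syp, Slc17a7, Gad1, Stmn2, Stmn3, Nefl and Rbfox3) and matched by symbol, and all 10 were found among the 47643 Ensembl genes counted. The mice carried Tg(Aldh1l1-eGFP/Rpl10a) JD130Htz, in which the ribosomal protein L10a fused to eGFP is made under the Aldh1l1 promoter, so that ribosomes of Aldh1l1-expressing cells can be captured with an antibody to GFP. Dorsal hippocampus of 3 animals gave the pulldowns of full astrocytes (Astro) and of perisynaptic astrocytic processes (PAP), the fine branches that lie against synapses; every library of both compartments came from this transgene and a GFP antibody, and the labels used here give no age and no treatment. How the PAP fraction was separated is not given in the sources used here. Each animal and compartment was sequenced as 8 technical replicates, whose counts were summed, so that each group holds 3 libraries, 1 per animal.

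A neuron releases transmitter from synaptic vesicles that dock at the presynaptic membrane and fuse when calcium enters. Most of the messenger RNAs for this machinery sit in the cell body, and the proteins travel down the axon, while dendrites hold a separate population of localized messengers. Astrocytes do not carry classical presynaptic terminals, and the genes described here are used in the brain as signs of neuronal RNA. Because a perisynaptic process is bound closely to axon terminals and spines, these genes mark the cells that a preparation of such processes could carry along. In bulk samples, fewer cells of a type and less RNA per cell cannot be told apart.

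Many neuronal genes carry the repressor element RE1, to which the factor REST binds in non-neuronal cells. RefSeq windows of 250 bases before the transcription start (GRCm38) were found for 7 of the 10 genes, 8 windows in all, and were searched on both strands for the left part of RE1 (TTCAGCACC), its right part (GGACAGCGC), the cAMP response element (TGACGTCA) and the GC box (GGGCGG). No match of 1 motif overlapped a match of another motif. The left part of RE1 was present in Syn1 alone of the 7 genes and in 0.301% of the 32851 windows of all genes; the right part was in none of the 8 windows and in 0.304% of all. The cAMP response element was also in Syn1 alone of the 7, against 1.55% of all windows, and the GC box was in 4 of the 8 windows (Gad1, Slc17a7, Syp and Syt1), against 32.7% of all. The stretches that lie before both the RefSeq start and the GENCODE gene are shown for Syn1, as the window with the RE1 match, and Slc17a7, as the window with the most GC boxes, 5′ to 3′ on the gene's strand with the matches in capitals. The Syn1 stretch is chrX:20921005-20921168 on the minus strand, with the RE1 match starting 232 bases and the cAMP response element 159 bases before the RefSeq start; the Slc17a7 stretch is chr7:45163671-45163920 on the plus strand, with GC boxes starting 70, 18 and 13 bases before it, the latter pair on the other strand and sharing 1 base. A match is a description of letters and not of a bound site.
Syn1: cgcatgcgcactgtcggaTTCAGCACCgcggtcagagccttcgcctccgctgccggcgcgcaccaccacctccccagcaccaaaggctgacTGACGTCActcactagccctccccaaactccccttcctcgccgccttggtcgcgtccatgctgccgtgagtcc
Slc17a7: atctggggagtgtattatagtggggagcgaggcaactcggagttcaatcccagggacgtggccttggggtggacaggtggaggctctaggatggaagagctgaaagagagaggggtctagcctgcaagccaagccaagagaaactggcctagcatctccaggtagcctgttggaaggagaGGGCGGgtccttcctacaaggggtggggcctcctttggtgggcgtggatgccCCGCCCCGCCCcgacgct

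The Astro libraries held 18707844 to 20293538 counts and the PAP libraries 1829962 to 2980984. Levels below are CPM (counts as a share of the library total) scaled by TMM factors, which adjust the totals for composition; a count of 3, taken as the floor, equals 0.152 to 0.176 CPM in Astro and 0.991 to 1.55 CPM in PAP. Across all tested genes, log2 CPM correlated at 0.941 to 0.955 among the Astro libraries and at 0.524 to 0.554 among the PAP libraries. Between Astro and PAP libraries the values were 0.459 to 0.537, a range that overlaps that among PAP. These are a description over genes, which are not independent replicates. Astrocyte markers checked the compartments. Summed over 18 markers they stood at 51199, 48724 and 36754 CPM in Astro animals 1 to 3 and at 5947, 13237 and 24093 CPM in PAP, and in 17 of the 18 genes every PAP library lay below every Astro library. Of these 18 genes, 6 fell in PAP by the edgeR quasi-likelihood test (adjusted p under 0.05 over all genes) and 0 rose, where 15.4% of all tested genes fell and 35.1% had every PAP library below every Astro library. With the animal as a replicate block 0 of the 18 were called, with 15 at an unadjusted p under 0.05.

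All 10 neuronal genes were detected in every Astro library, with 421 to 13036 counts. In PAP, 2 of the 10 differed from Astro by the edgeR quasi-likelihood test: Snap25 fell and Syt1 rose. Across all 14618 tested genes 21.3% were called, 5.92% higher and 15.4% lower in PAP, in numbers 865 and 2250 (699 and 948 at equal depth, 128 and 5 with the animal as a replicate block), so 2 of 10 is near the background and says nothing particular about neuronal markers as a list. The median log2 fold change of the 10 genes was -0.59, beside -0.53 over all tested genes. This closeness depended on the PAP libraries used. Without PAP animal 1, 2 or 3 the median of the 10 was -0.12, -1.42 and -0.07, beside -0.88, -0.86 and -0.95 over all. With the animal as a replicate block 0 of the 10 were called, with 2 at an unadjusted p under 0.05, where 0.91% of all genes were called, and their median was -1.77 beside -1.63 over all. Every PAP library lay above every Astro library in 1 of the 10 (10.9% of all tested genes) and below in 2 (35.1%), while the groups overlapped in the other 7.

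**Figure D1:**
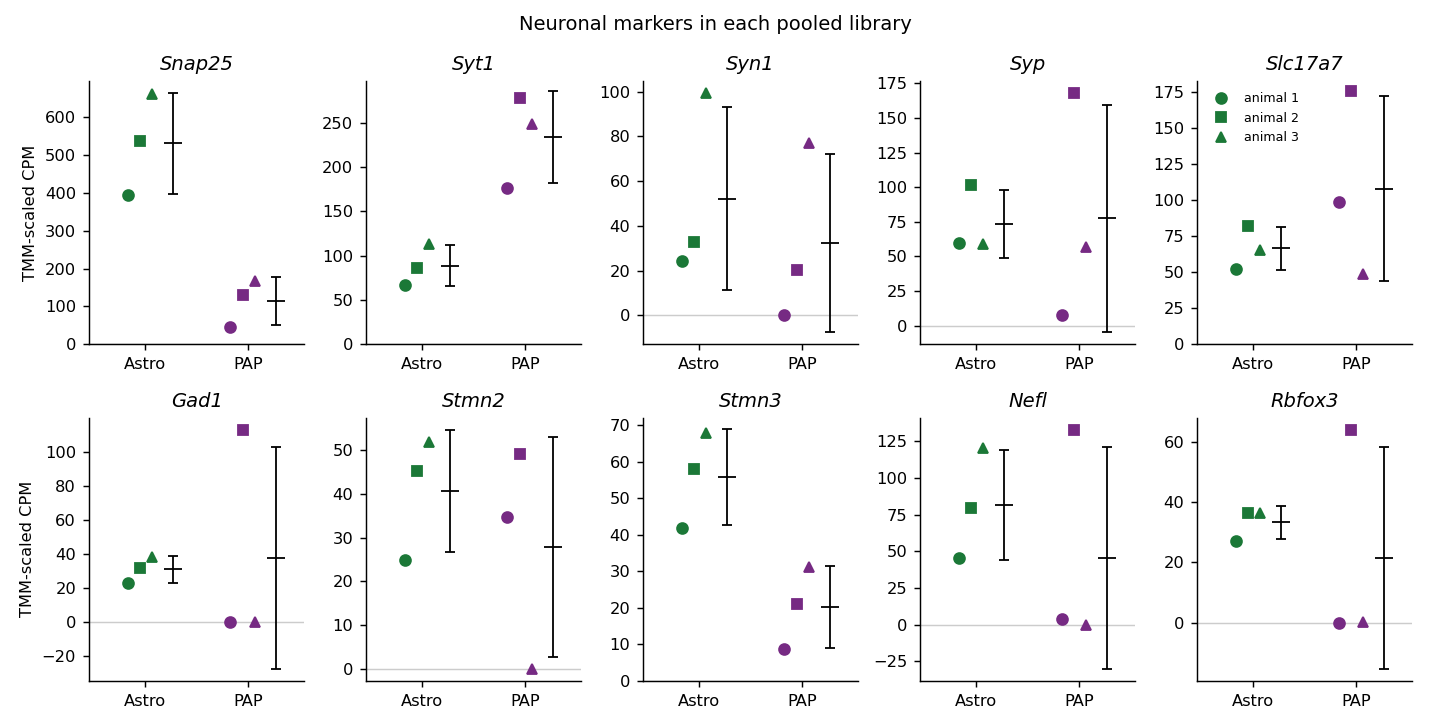
Level of each of the 10 neuronal markers in TMM-scaled CPM (vertical axis, linear, a separate scale for each gene) in the 3 Astro libraries (green) and the 3 PAP libraries (purple); the symbol shape gives the animal, and the bar at the right of each group is the mean with the SD. Snap25 and Stmn3 lie lower and Syt1 higher in all 3 PAP libraries, and Gad1, Nefl and Rbfox3 are high in PAP animal 2 and at or near 0 in the other PAP libraries.

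Among the vesicle genes, Snap25 fell and Syt1 rose, while Syn1 and Syp did not pass the test. Gene positions are those of GENCODE on GRCm38. Snap25 (ENSMUSG00000027273, chr2:136713453-136782428) encodes the membrane SNARE protein with which vesicles fuse at the terminal. It stood at 395, 539 and 662 CPM in Astro animals 1 to 3 and at 44.4, 130 and 167 CPM in PAP. Each PAP library was below each Astro library, and within the animals PAP stood at 0.112, 0.241 and 0.252 of the Astro level. The mean of 114 ± 62.8 CPM in PAP was 4.68-fold below that of 532 ± 133 CPM in Astro (SD, n = 3), with the log2 fold change fitted at -2.22 ± 0.54 (SE; edgeR adjusted p 0.0296). With the block the value was -2.39 ± 0.47 (adjusted p 0.127). It also missed the threshold without Astro animal 1, 2 or 3 (adjusted p 0.0964, 0.114 and 0.126) and without PAP animal 2 (0.0582), at log2 fold changes from -2.40 to -2.02.

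Syt1 (ENSMUSG00000035864, chr10:108497650-109010982) encodes synaptotagmin, the calcium sensor that triggers fast vesicle fusion. Its level was 67.1, 86.4 and 113 CPM in Astro animals 1 to 3 and 177, 277 and 248 CPM in PAP. The lowest PAP library stood above the highest Astro library, and PAP was 2.63, 3.21 and 2.21 times the Astro level within the animals. The mean rose 2.64-fold, from 88.7 ± 22.8 CPM in Astro to 234 ± 51.9 CPM in PAP (SD, n = 3), with the log2 fold change fitted at 1.40 ± 0.37 (SE; edgeR adjusted p 0.0414). With the block the adjusted p was 0.206, at 1.41 ± 0.50. The call was also lost without Astro animal 1, 2 or 3 (adjusted p 0.18, 0.165 and 0.0957) and without PAP animal 2 or 3 (0.0716 and 0.0606), at log2 fold changes from 1.20 to 1.63. It was the only 1 of the 10 genes with a smaller coefficient of variation in PAP (0.222) than in Astro (0.258).

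Syn1 (ENSMUSG00000037217, chrX:20860511-20921004) encodes synapsin, which tethers vesicles in the reserve pool. It stood at 24.4, 32.9 and 99.4 CPM in Astro and at 0, 20.1 and 77 CPM in PAP. In each animal PAP was below Astro, but the groups overlapped, since animal 3 was high in both. The log2 fold change was -0.69 ± 1.64 (SE; edgeR adjusted p 0.848), and without Astro animal 3 it was 0.20. The count of 0 in PAP animal 1 allows up to 1.53 CPM. Syp (ENSMUSG00000031144, chrX:7638471-7653256) encodes synaptophysin, a major vesicle membrane protein. It was at 59.6, 101 and 59.2 CPM in Astro and at 7.65, 168 and 56.5 CPM in PAP, so the PAP libraries lay on both sides of Astro. Its log2 fold change of 0.08 ± 1.00 (SE; edgeR adjusted p 0.975) changed sign under 7 of 15 alternative settings, among them without PAP animal 2 (-1.25). Of the exonic bases of Syp, 875 of 5211 overlap the antisense gene Gm14703, and where the counting did not use strand, reads of that stretch cannot be assigned to either gene.

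The genes of transmitter identity showed different spreads. Slc17a7 (ENSMUSG00000070570, chr7:45163949-45176142) encodes VGLUT1, which loads glutamate into vesicles of excitatory hippocampal neurons. It stood at 52.2, 82.3 and 65.5 CPM in Astro and at 99 and 176 CPM in PAP animals 1 and 2, above all Astro libraries, but at 48.9 CPM in PAP animal 3, below them. The log2 fold change was 0.70 ± 0.58 (SE; edgeR adjusted p 0.516) and its direction held in all 15 alternative settings, none of which passed the threshold, but its size rested on PAP animal 2, without which it was 0.09. Gad1 (ENSMUSG00000070880, chr2:70553072-70602014) encodes the enzyme that makes GABA in inhibitory neurons. It was at 22.6, 31.9 and 38.3 CPM in Astro. In PAP it had 0 counts in animals 1 and 3, and 219 counts or 113 CPM in animal 2, above every Astro library. The log2 fold change over all libraries was 0.28 ± 2.22 (SE; edgeR adjusted p 0.957), so its mean rested on 1 library.

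Stmn2 (ENSMUSG00000027500, chr3:8509360-8561606) and Stmn3 (ENSMUSG00000027581, chr2:181306459-181314500) encode stathmins, proteins that bind tubulin and act on microtubule growth in axons. Stmn2 stood at 24.9, 45.2 and 51.8 CPM in Astro and at 34.7, 49 and 0 CPM in PAP, where the libraries of animals 1 and 2 lay within the Astro range and that of animal 3 had no count. Its log2 fold change was -0.55 ± 1.6 (SE; edgeR adjusted p 0.877), and it ran from -1.30 without PAP animal 2 to -0.02 without PAP animal 3. Stmn3 stood at 41.7, 58 and 67.8 CPM in Astro and at 8.67, 21.1 and 31.1 CPM in PAP. All PAP libraries were below all Astro libraries, by 2.75-fold between the means, yet the difference did not pass the test (log2 fold change -1.46 ± 0.73, SE; edgeR adjusted p 0.246), and all 15 alternatives gave a negative value without passing. Nefl (ENSMUSG00000022055, chr14:68083863-68089095) encodes the light chain of neurofilaments, which fill large axons. It stood at 45.6, 79.3 and 121 CPM in Astro and at 3.57, 133 and 0 CPM in PAP, so the PAP library of animal 2 was above every Astro library and the other PAP libraries were below all of them. The log2 fold change was -0.85 ± 1.86 (SE; edgeR adjusted p 0.83), and without PAP animal 2 it was -5.66 (adjusted p 0.0627). Nefl shares 1108 of its 3380 exonic bases with the oppositely oriented Nefm. Where the counting did not use strand, reads of that stretch cannot be assigned to either gene.

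Rbfox3 (ENSMUSG00000025576, chr11:118489762-118911597) encodes NeuN, an RNA-binding protein of neuronal nuclei that is used to stain neuronal cell bodies. It varied least of the 10 genes in Astro, at 27, 36.2 and 36.5 CPM. In PAP it had 0 counts in animal 1, 124 counts or 63.9 CPM in animal 2 and 1 count in animal 3. The log2 fold change was -0.64 ± 1.97 (SE; edgeR adjusted p 0.884). For Rbfox3 and Gad1, PAP animal 2 held all but 1 and all of the PAP counts. Leaving it out therefore removed the PAP signal by construction, and both were then called lower (edgeR adjusted p 0.0227 each). Without PAP animal 1 or 3, the log2 fold changes were -0.09 and -0.12 for Rbfox3 and 0.83 and 0.80 for Gad1, with no call.

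**Figure D2:**
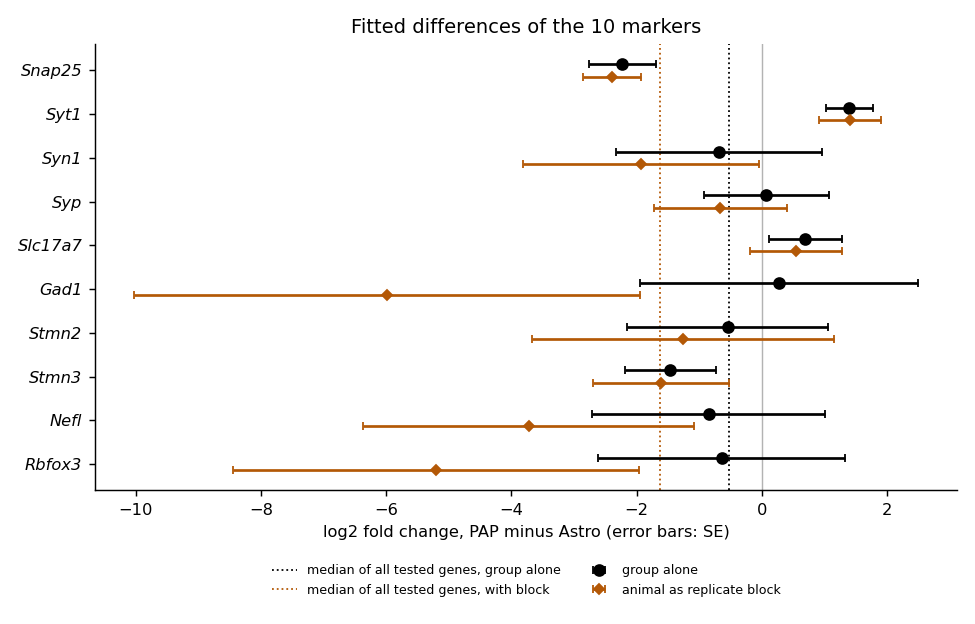
Fitted log2 fold change, PAP minus Astro (horizontal axis), of the 10 genes with its SE, from the model of group alone (black circles) and with the animal as a replicate block (orange diamonds); dotted lines are the medians of all tested genes, -0.53 and -1.63. Snap25 and Syt1 keep their side of 0 and their short error bars in both models, while Gad1, Rbfox3 and Nefl shift by several log2 units and have the longest bars.

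Of the 30 pairs of a marker and a PAP library, 6 had no count in the sum of the 8 technical replicates. In PAP animal 2 Gad1 had 20 to 37 counts, Nefl 26 to 37 and Rbfox3 12 to 22 in each of the 8 technical replicates. The high level of PAP animal 2 was thus present in every technical replicate. These replicates share 1 animal and compartment, so an excess that arose before they were made would show in all 8. Depth was set equal by thinning every library to 1829962 counts. At that depth the Astro libraries still held 31 to 69 counts of Gad1, 31 to 71 of Rbfox3, 81 to 236 of Nefl and 31 to 81 of Stmn2. Of the 10 genes, 5 were at or under 3 counts in at least 1 PAP library, and so were 35.9% of the 5633 tested genes within the same range of mean Astro level (30.9 to 532 CPM); among these 5633 genes, 0 were at or under 3 counts in any Astro library. The coefficient of variation was higher in PAP than in Astro for 9 of the 10 genes, with medians of 0.983 and 0.256; over the 5633 genes the medians were 0.786 and 0.151, so a wider spread in PAP was general.

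**Figure D3:**
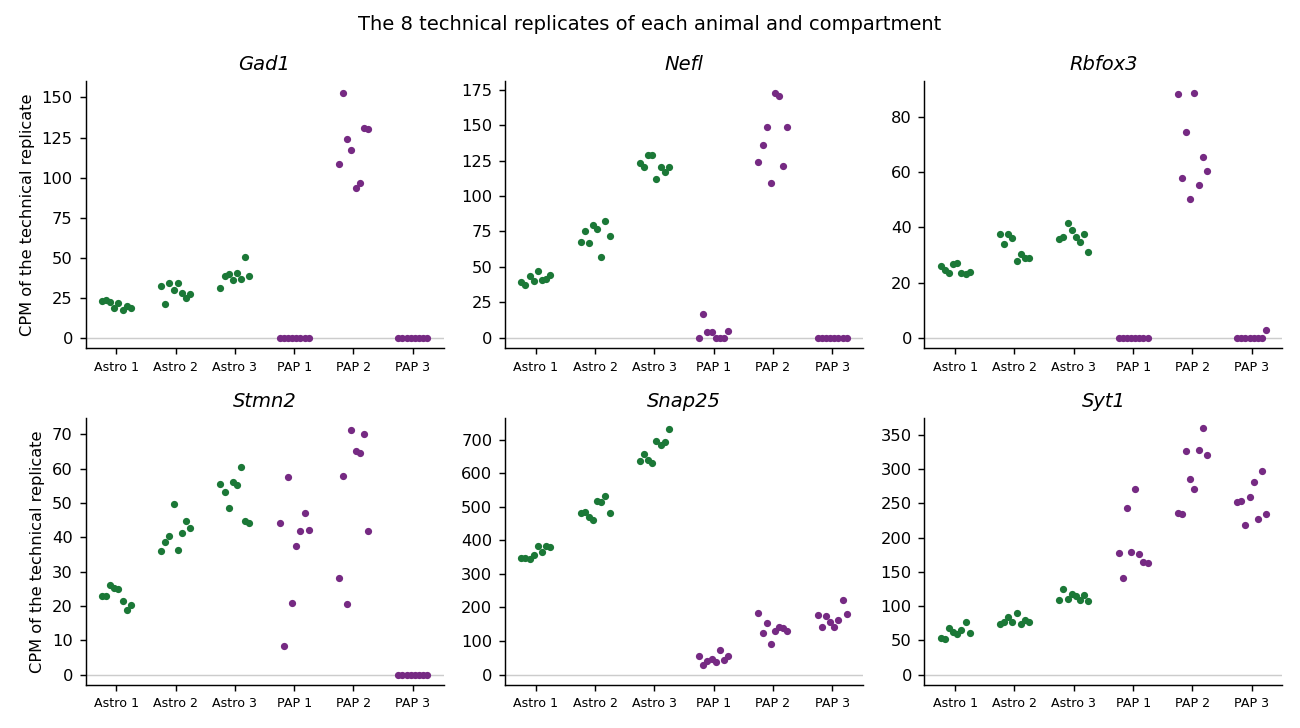
CPM of each technical replicate (vertical axis, counts over that replicate's own total, linear) for 6 of the genes in the 6 libraries (horizontal axis; green Astro, purple PAP), 8 points per library. The points of Gad1 lie at 0 in all 8 replicates of PAP animals 1 and 3 and far from 0 in all 8 of PAP animal 2, whereas those of Snap25 and Syt1 are above 0 in every library.

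Animals differed in how much of these messengers their libraries held. In Astro, 9 of the 10 genes were lowest in animal 1 and 8 were highest in animal 3. In PAP, 7 were highest in animal 2 and 7 were lowest in animal 1, zeros included, and the number at or under 3 counts was 3 in animal 1, 0 in animal 2 and 4 in animal 3. The summed level of the 10 genes was 760, 1092 and 1313 CPM in Astro animals 1 to 3 and 375, 1152 and 629 CPM in PAP, so the groups overlapped. Single genes weighed heavily in it. Snap25 was the largest part in Astro, at 395, 539 and 662 CPM, and Syt1 in PAP, at 177, 277 and 248 CPM. Set against the 18 astrocyte markers of the same library, the sum was 1.49%, 2.24% and 3.57% in Astro and 6.3%, 8.7% and 2.61% in PAP. This ratio was higher in PAP in animals 1 and 2 and lower in animal 3, whose PAP library had the highest astrocyte marker sum of the 3; the part of the astrocyte markers in it was not tested.

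**Figure D4:**
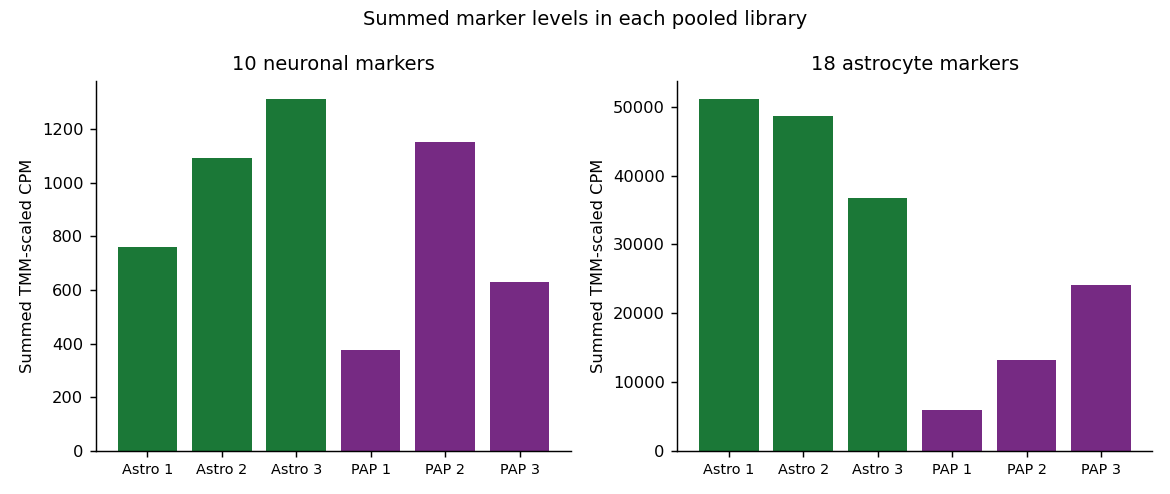
Summed TMM-scaled CPM of the 10 neuronal markers (left) and of 18 astrocyte markers (right) in each library (horizontal axis; green Astro, purple PAP), on linear axes from 0. The neuronal sums of PAP, 375 to 1152 CPM, overlap those of Astro, 760 to 1313 CPM, while every astrocyte sum of PAP is below every one of Astro.

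Levels of different genes were compared per kilobase of exonic length. This length joins the exons of all annotated transcripts of a gene, and the order of the genes depends on it. In Astro, Snap25 stood highest at 78.3 CPM per kb, followed by Stmn3 at 49.1. Their ranges over the libraries overlapped (58.2 to 97.5 and 36.7 to 59.7), though Snap25 was above Stmn3 within each library. Stmn3 was separated from the next gene, Nefl, at 24.2 CPM per kb (13.5 to 35.7). Before the division by length, the Astro mean of Stmn3 (55.8 CPM) lay below that of Nefl (81.8 CPM). From Nefl down, each gene overlapped with the next, in the order Syn1, Syp, Slc17a7, Syt1, Stmn2, Rbfox3 and Gad1, the last at 4.05 CPM per kb. On this scale Snap25 exceeded Aldh1l1, the gene whose promoter drives the tagged ribosome (52.1 CPM per kb), but not Slc1a3, the astrocyte glutamate transporter (371), or Gfap, the astrocyte intermediate filament (1971). In PAP, Syt1 stood highest at 28.1 CPM per kb, ahead of Slc17a7 at 20, Stmn3 at 17.9 and Snap25 at 16.7, and every gene overlapped with the next. Among the 14566 tested genes with a length, Syt1 went from the percentile 66.4 in Astro to 85.4 in PAP, and Snap25 from 93.9 to 77.3.

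Other genes of the same processes came from lists written beside the members. Of 29 genes of the presynaptic release machinery, all tested, 4 fell and 0 rose by the edgeR test, beside 15.4% of all tested genes lower and 5.92% higher. The median log2 fold change was -0.37, or -1.53 with the block, beside -0.53 and -1.63 over all. Rab3a, the GTPase of synaptic vesicles, fell from 103 ± 23.7 CPM in Astro to 19 ± 0.79 CPM in PAP (SD, n = 3; log2 fold change -2.44 ± 0.51, SE; edgeR adjusted p 0.0212), with 3 closely spaced PAP libraries at 19.9, 18.6 and 18.5 CPM. Cplx1, which encodes complexin, had 3 counts over the PAP libraries and a pooled level 169-fold below Astro (95% exact Poisson interval 57.7 to 818; edgeR adjusted p 0.0208). This interval and those that follow cover counting error only, not the spread between animals or from amplification, and are too narrow for both. Amph, which encodes amphiphysin of vesicle retrieval, had 2 counts and a pooled level 69.5-fold below (19.2 to 574; edgeR adjusted p 0.0279). With the block 0 of the 29 passed and 5 had an unadjusted p under 0.05.

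Of 14 genes of the axonal cytoskeleton 13 were tested, and 1 fell, the stathmin gene Stmn4 (1 count in PAP, pooled level 185-fold lower, 95% Poisson interval 33.2 to 7305; edgeR adjusted p 0.0208). Their median was -0.02, or -1.75 with the block. Of 16 neuronal RNA-binding and transcription factors, all tested, 4 fell and 0 rose, again beside 15.4% and 5.92% of all. With the block 0 were called and 3 had an unadjusted p under 0.05. The median was -1.89 (-2.80 with the block), or -1.71 with the genes at the PAP floor set to their bounds (all tested genes: -0.53 and -0.46). Nova1, a splicing regulator, and Prox1, a factor of dentate granule cells, had 0 counts in PAP and were at least 16.8-fold and 12.1-fold lower against the mean PAP floor of 1.36 CPM for 3 counts per library (edgeR adjusted p 0.0208 and 0.023). Bcl11b, a factor of projection neurons, and Elavl2, a neuronal RNA-binding protein, had 3 counts each over the PAP libraries (edgeR adjusted p 0.0381 and 0.0403). Their pooled levels were 58-fold (95% Poisson interval 19.8 to 281) and 11.9-fold (4.07 to 57.6) below Astro. In 9 of the 16 every PAP library lay below every Astro library, against 35.1% of all tested genes.

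Genes of glutamatergic identity went both ways, with 1 rise and 1 fall among the 8 of 10 tested. Grin2a, an NMDA receptor subunit, rose from 17.3 ± 3.4 CPM in Astro to 101 ± 30.8 CPM in PAP (SD, n = 3; log2 fold change 2.55 ± 0.55, SE; edgeR adjusted p 0.0223). Nrgn, the calmodulin-binding neurogranin, fell from 178 ± 54.7 to 47.6 ± 25.3 CPM (-1.91 ± 0.53, SE; edgeR adjusted p 0.0495). The list's median was 1.09, or 0.74 with the block. Of 12 GABAergic genes 10 were tested, and 1 fell, Vip, a peptide of interneurons, at least 5.32-fold lower (edgeR adjusted p 0.0208). Their median was 0.96, but -0.40 with the block. Over these 5 lists 12 of 76 tested genes were called (15.8%, beside 21.3% of all genes), and 0 with the block, where 12 had an unadjusted p under 0.05.

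Messengers known from dendrites formed another neuronal class. Of 12 such genes, all tested, 0 were called by the edgeR test, while 3 had an unadjusted p under 0.05, all higher (all tested genes: 9.39% higher and 21.5% lower at that p), and DESeq2, which called 11.5% of all tested genes higher and 23.6% lower, called 5, 4 of them higher. For comparison, DESeq2 called 8 of the 29 release genes (2 higher), 4 of the 13 cytoskeletal genes (0 higher), 9 of the 16 RNA-binding and transcription factors (2 higher), 3 of the 8 glutamatergic genes (2 higher) and 2 of the 10 GABAergic genes (1 higher). Their median log2 fold change was 0.80 (0.28 with the block), beside -0.59 for the 10 soma and presynaptic markers, and 9 of the 12 were positive, beside 4 of the 10; the difference between the lists was not tested. Summed, the dendritic genes stood at 598, 704 and 978 CPM in Astro and at 539, 1091 and 1021 CPM in PAP. Markers of other cells were read in the same libraries. The microglial genes Cx3cr1, P2ry12 and Tmem119, the 3 called lower of the 9 of 12 microglial genes tested, had 0 counts in every PAP library, where 15.4% of all tested genes were lower and 16.5% were at or under 3 counts in every PAP library, and the summed level of 12 microglial genes was 48.2 to 106 CPM in Astro and 81.3 to 220 CPM in PAP, where Ctss, a lysosomal protease, alone had 121 of 182 CPM in animal 1 and 188 of 220 CPM in animal 2. Oligodendrocyte genes summed to 838 to 924 CPM in Astro and 612 to 1063 CPM in PAP, with 1 of 12 called lower, and endothelial genes, 3 of 10 tested and 1 called lower, to 13.3 to 29.4 CPM in Astro and 14.9 to 24.5 CPM in PAP. With the block 0 genes of these 3 lists were called, with 3 microglial, 2 oligodendrocyte and 1 endothelial gene at an unadjusted p under 0.05. The part of any of these cells in the results above was not tested.

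The genes whose levels most resembled the summed 10 markers over the 6 libraries were sought among 7568 others with at least 10 CPM on average in each group. By Pearson's r of log2(CPM + 1) they were Rundc3a (0.981), Ddx24 (0.966), Rab22a (0.965), Cuedc2 (0.965) and Sept3 (0.964). These values describe 6 libraries and rest on their shared differences in level between animals and compartments. Among the 10 markers themselves, 33 of 45 pairs had a positive r over the 6 libraries, with a median of 0.47 and a range from -0.67 to 0.99. Syt1 (r -0.21) and Slc17a7 (0.16) followed the sum of the 10 least.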

How the data were processed

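Ribosome-bound RNA of Astro and PAP from 3 mice was measured by RNA-seq. The deposited values are raw read counts per Ensembl gene, per the file headers; the submitters' processing notes name Trim Galore 0.4.1, STAR 2.5.2b, HTSeq 0.5.3 and the build mm10, while strand setting and annotation release are not given in the sources used here. Per the labels' protocols, lysates were cleared on columns without and with unspecific antibody, RNA was amplified before library preparation, and no molecular identifiers are mentioned, so floors cover counting error only. Counts of the 8 technical replicates were summed. Symbols, positions and exonic lengths came from GENCODE M21 (GRCm38), which held 99.12% of the IDs.

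Genes passing filterByExpr (minimum count 10) were compared with the quasi-likelihood test of edgeR 4.0.16 in R 4.3.3, on group alone with TMM factors and Benjamini-Hochberg adjustment over 14618 genes (threshold 0.05). On simulated counts the test recovered changed genes where both groups varied alike, but none where the PAP libraries varied far more than Astro. That simulated spread of PAP was wider than the median spread of the real PAP libraries, with which the test called 3115 genes. Libraries of both compartments come from the same animals per the labels, so a fit with the animal as block is given where it changes a call; deviations of the libraries of animals 1 to 3 from their group means correlated at 0.03, 0.02 and -0.03. DESeq2 1.42.0 and limma 3.58.1 served in alternatives. The 10 genes and all lists were chosen with earlier results of these data known. Named beyond the 10 are the called genes of each wider list, at most 4 with the highest mean CPM (some results are not reported here), and the 5 genes most like the summed markers; genes of other cell types are named to describe the libraries.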

Additional observations from a re-analysis of the deposited data

How the results depend on the processing

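Of 150 recomputed fold changes of the 10 genes, 139 kept their direction, and 7 of the genes never changed sign over the 15 alternatives. Syp turned from 0.0759 to -0.0935 with no filter on low counts, -0.66 with the replicate block, -0.0687 in technical replicates 1 to 4 and -0.70 in limma voom with 1 variance weight per group, and ran from -1.25 to 0.58 across the fits without 1 library. Gad1 turned to -5.99 with the replicate block and -3.96 in voom, and ran from -11.5 to 0.83 without 1 library, the former resting on PAP libraries with no count. Syn1 ran from -2.44 to 0.20 without 1 library. Snap25 passed the threshold in 8 and Syt1 in 6 of 15 alternatives, with log2 fold changes from -2.68 to -1.88 and from 1.20 to 1.64; Snap25 missed it at equal depth (adjusted p 0.0504) and Syt1 without a filter (0.125). Of the 10 genes, 1 was called with no filter and in technical replicates 1 to 4 (Snap25) and 1 at equal depth (Syt1), and 0 with the replicate block and in voom (2 and 1 at an unadjusted p under 0.05), and 0 to 2 were called without 1 library, Rbfox3 and Gad1 in place of Snap25 and Syt1 without PAP animal 2. All called genes, 3115, became 5141 with the DESeq2 Wald test, 133 with the replicate block, 1647 at equal depth and 115 to 4586 without 1 library; the 12 called genes of the wider neuronal lists became 26, 0 and, without 1 library, 0 to 19. The fits without Astro animal 1, 2 or 3 gave 0 called members and 115, 128 and 140 genes. The fits without PAP animal 1, 2 or 3, also on 5 libraries, gave 4157, 4037 and 4586 genes. The cause was not tested. The median log2 fold change over all tested genes, -0.53, became -0.37 with library size alone, -0.22 at equal depth, -1.04 with no filter and -1.62 in voom. It ran from -0.95 to -0.86 without 1 PAP library and from -0.40 to -0.37 without 1 Astro library. Depth limits PAP: 3 counts are 0.991 to 1.55 CPM there.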

Other observations

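Several genes of the wider neuronal lists were at or under 3 counts in 1 or more PAP libraries and above every Astro library in another. This held for 20 of the 76 tested genes (26.3%), beside 27.1% of all tested genes, and for 3 of the 10 markers, Gad1, Nefl and Rbfox3, beside 12.1% of the tested genes within the same range of Astro level. The following genes were chosen after their values were seen. Sv2a, a vesicle glycoprotein, had 0, 213 and 18.2 CPM in PAP of animals 1 to 3. Erbb4, a neuregulin receptor of interneurons, was at 0, 2.06 and 107 CPM, and Rims1, an active zone scaffold, at 0.51, 1.03 and 75 CPM. Vamp1, a vesicle SNARE protein, was at 95.4, 0 and 42 CPM. The highest PAP library of the 20 genes was that of animal 1 in 7, of animal 2 in 5 and of animal 3 in 8, whereas the 3 markers of this kind were all highest in animal 2. The interneuron peptide genes Sst and Npy had no count in PAP animal 1 and stood at 21.6 and 63.4 CPM, and at 21.1 and 21.5 CPM, in animals 2 and 3. Other GABAergic genes went the other way: Calb2 stood at 17.3, 15.5 and 0 CPM and Dlx1 at 23, 0 and 0 CPM in PAP animals 1 to 3. The list thus had no common order of the PAP animals.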
